A study of Mus musculus with 12 samples.

Results

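The genes described here are 151 Ensembl gene IDs, of 14675 in the deposited table, that took many counts in total RNA and few in RNA pulled down with tagged ribosomes. They were chosen on these values: a mean of at least 700 CPM (counts scaled to a common column total) over the 6 input columns, and a mean over the 6 pull-down (IP) columns of at most 0.4 of it. Of 304 gene IDs at 700 CPM or more, 170 also met the second condition. From these, 19 were set aside by symbol, among them genes of the mitochondrial genome, mitochondrial ribosomal protein genes and Bc1. The low IP level of the members is therefore a property of the choice, is given as a description, and supports no statement. All 151 passed the filter on low counts and were tested.

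Dorsal root ganglion (DRG) RNA came from adult RPL22HA+/+;Advillin-Cre+ mice, in which Cre under the Advillin promoter puts an HA tag on the ribosomal protein RPL22 of sensory neurons. The 4 groups, with 3 columns each, were input and IP after AAV-shGpr151, a virus with a short hairpin against Gpr151, and input and IP after AAV-shGpr151 with AAV-e5'UTR. What the e5'UTR insert is, the labels do not say. Both treatments carried the hairpin, and a group with a non-targeting hairpin was not analysed here. The design text names cultured neurons taken after a sciatic nerve injury, whereas the labels' protocol names freshly collected ganglia. Column totals ran from 975403 to 985277 estimated counts in input and from 1381220 to 1517685 in IP. The 3 columns of a group had almost equal totals and differed by little more than counting error, so each group was counted as 1 sample, called a pool. Tests over columns thus compare pools of reads, not conditions, and no difference between treatments has a check on separate animals. Nothing in the labels says that the 3 columns are separate animals or cultures, so the p-values measure only the spread between columns, which may be technical.

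In the RiboTag method, ribosomes carrying the tag are pulled down with an antibody against HA, and the RNA on them is that of the cells in which Cre was active. Input holds RNA of all cells in the sample, in nuclei and cytoplasm, whether or not a ribosome is on it. The fractions also need not hold the same share of reads assigned to the wrong gene, and how reads that match several genes were shared out is unknown. Its part in the members' values was not tested. In such bulk samples, fewer cells of a type and less RNA per cell cannot be told apart.

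The members took 34.8% of all counts in input shGpr151 (95% Wilson interval 34.76% to 34.87%) and 34.8% in input with e5'UTR (34.75% to 34.86%). In IP they took 7.78% (7.75% to 7.8%) after shGpr151 and 6.3% (6.28% to 6.32%) with e5'UTR. The 3 columns of a pool lay within 34.71% to 34.87% in both input pools, 7.76% to 7.8% in the shGpr151 IP pool and 6.29% to 6.31% in its e5'UTR counterpart, so the 2 IP pools did not overlap. Intervals here and below cover counting error only and treat reads as independent. Reads from amplified cDNA are not independent molecules, so the intervals may be too narrow. The 134 other gene IDs at 700 CPM or more in input took 24.3% of both input pools, 39.6% of the shGpr151 IP pool and 40.9% of the other.

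The members' ratio of mean IP to mean input CPM had a median of 0.207, with quartiles at 0.178 and 0.25. It lay between 0.15 and 0.25 for 97 members, under 0.1 for 6 and over 0.3 for 19. Between 0.392 and 0.458 lay no gene ID at 700 CPM or more. On the inside stood Cryab at 0.392, Prdx1 at 0.391, ENSMUSG00000141434 at 0.39 and Polr2l at 0.386. Leaving out symbols of the kinds set aside, Fkbp3 at 0.458, Ftl1, the light chain of ferritin, at 0.524, Gm45713 at 0.526 and Gm17494 at 0.717 stood outside. At the input threshold, Rbm5 with 703 CPM and ENSMUSG00000131152 with 717 CPM were inside, and ENSMUSG00000120295 with 699 CPM and Glo1 with 686 CPM were outside. The ratio of ENSMUSG00000120295 was 0.227, within the range of the members, and that of Glo1 was 0.394, just above it.

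**Figure D1:**
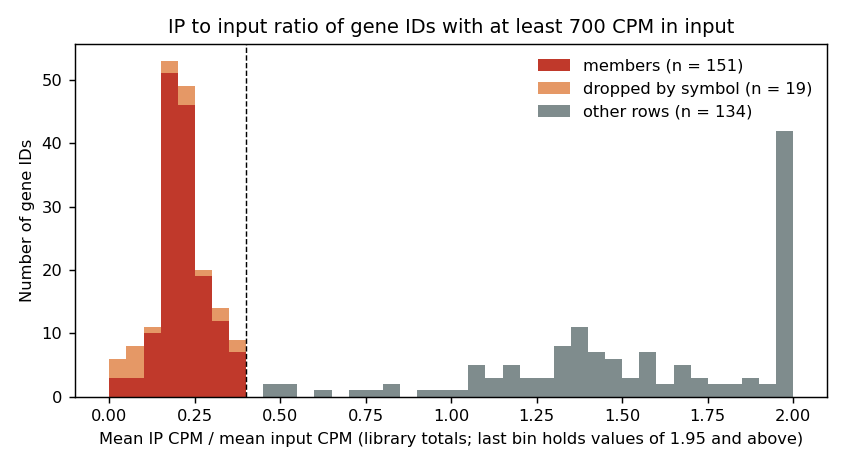
The number of gene IDs with at least 700 CPM in input is plotted against the ratio of mean IP to mean input CPM, stacked by set, with the threshold of 0.4 as a dashed line. The 151 members gather between 0.15 and 0.25, and the 134 other gene IDs spread from 0.458 upwards.

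By name the members were an unusual mix. No symbol was found for 41 of 151 (27.2%), and 26 (17.2%) had the symbol of a predicted gene, a clone or a pseudogene. Among the 134 other abundant input gene IDs these shares were 4.48% and 4.48%, and among all 14675 they were 10.1% and 9.72%. Another 4 members (2.65%) were olfactory receptors, against 35 of all gene IDs (0.239%) and none of the 134. The remaining 80 (53.0%) had symbols of other kinds. These shares describe the choice and were not tested.

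The 12 highest members in input included ENSMUSG00000126186, with 28510 counts in input shGpr151, 28155 in input with e5'UTR, 7449 in shGpr151 IP and 6432 in e5'UTR IP. Unc13d, the MUNC13-4 protein that primes secretory granules in blood cells, had 8911, 9220 and 9206 counts in the columns of input shGpr151 and 9041, 8854 and 8985 in those of input with e5'UTR. Its IP columns held 2327, 2406 and 2361 counts after shGpr151 and 1935, 2091 and 2057 with e5'UTR. Every IP column lay far below every input column, and the input pools overlapped while the IP pools did not. Brd8, a bromodomain subunit of the NuA4/TIP60 histone acetyltransferase, had 8155 to 8434 counts in the 6 input columns, 2420 to 2492 in the shGpr151 IP columns and 2089 to 2107 in those of IP with e5'UTR. Zfp410, a zinc finger transcription factor, had 7187 to 7384 in input, then 2046 to 2100 and 1692 to 1774 in the same IP pools. Nlrc3, a NOD-like receptor that dampens innate immune signalling, had 6757 to 6923, then 2653 to 2678 and 2314 to 2401. The columns of IP with e5'UTR, where these counts were lowest, had the largest totals. Eapp, Ccdc62 and Sap18 completed the named members among the 12 highest, with mean input levels of 6815, 7755 and 5428 CPM and ratios of 0.186, 0.219 and 0.325. Levels are not per length here and give no order of molecules between genes.

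**Figure D2:**
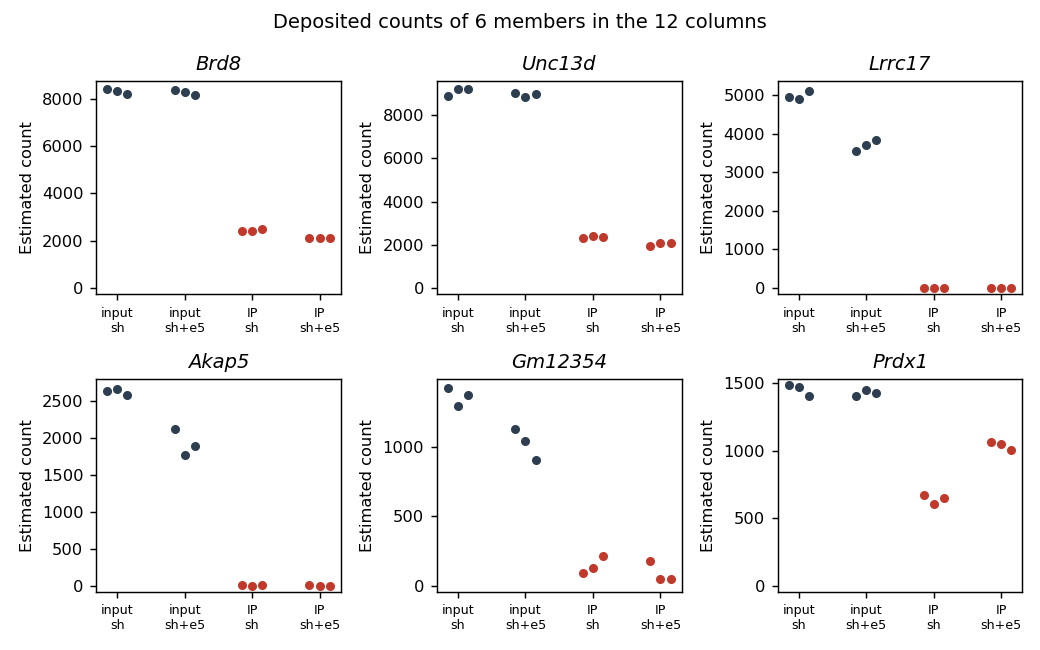
Each panel plots the deposited estimated count (linear axis) of 1 member in each of the 12 columns, input in dark blue and IP in red, where sh stands for shGpr151 and e5 for e5'UTR. Brd8 and Unc13d stand low in IP and lower again in IP with e5'UTR, Lrrc17 is at 0 in all 6 IP columns, Akap5 and Gm12354 are lower in input with e5'UTR, and Prdx1 is higher in IP with e5'UTR than in IP shGpr151.

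Members stood in many roles. The groups that follow were formed after the values had been seen and are descriptions. Chromatin, transcription and RNA processing held 19 members at 703 to 8461 CPM in input, with ratios from 0.147 to 0.386. Among them were Ttf1, the RNA polymerase I termination factor, the poly(ADP-ribose) polymerase Parp1, the m6A methyltransferase subunit Mettl3, and Polr2l, a shared RNA polymerase subunit. Membrane traffic, motors and cytoskeleton held 14, with ratios from 0.164 to 0.286, among them Arcn1, the delta subunit of the COPI coat, and Enah, an actin regulator. Chaperones, ubiquitin and SUMO genes numbered 7, from St13, an Hsp70 co-chaperone, at 0.123 to Uba2, a subunit of the SUMO-activating enzyme, at 0.244. Immune genes numbered 5, cilium genes 3 and long noncoding RNAs 3, the last being Ftx, Zfas1 and Pvt1, with ratios of 0.177, 0.2 and 0.236.

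Some members are known for expression in other tissues. Nanog, a transcription factor of pluripotent cells, counted 11542 and 11670 in input and 5047 and 4201 in IP. Of a list of 12 pluripotency genes 5 were in the table, and the list summed to 11586 and 11704 counts in input, so nearly all of its counts were those of Nanog. The 4 olfactory receptors Olfr655, Olfr1423, Olfr373 and Olfr889 had 2846, 2772, 1934 and 1610 CPM in input. The 31 olfactory receptors that were not members had a median of 3.91 CPM and a highest level of 54.7 CPM. Both lists thus had most of their counts on their members.

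Other subunits and relatives of the members were set beside them by IP against input, on the log2 scale of the model with TMM scaling. Over all 8085 tested genes, 38.7% were called higher in IP and 38.0% lower (edgeR's quasi-likelihood test, Benjamini-Hochberg adjusted p under 0.05). These are background for the choice, and all 151 members were lower, with a median of -3.17. In 9 lists of complexes and families, chosen with earlier results of these data known, 62 tested genes were not members, of which 39 were higher, 10 lower and 13 not called. The direction of many genes depends on the scaling. By library totals, which move the median of all tested genes from 0.10 to 0.99, 5205 of all genes were higher and 1984 lower, in place of 3125 and 3069, and 5 of the 62 were lower.

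Of the NuA4/TIP60 complex, 9 tested genes beside Brd8 had a median of 0.24, with 4 higher and 2 lower. Brd8 itself stood at -3.33. The AAA+ ATPase subunit Ruvbl2 was higher by 1.50 ± 0.18 (SE), from 29 and 16 counts in input to 149 and 191 in IP. Vps72, a histone chaperone, was lower, at -1.86 ± 0.08, with 440 and 448 counts in input and 367 and 307 in IP. The COPI list holds subunits of the coat, the small GTPase Arf1 and its GTPase-activating proteins. Its 11 tested genes beside Arcn1 had a median of 0.59, with 6 higher and none lower, while Arcn1 was at -3.24. The alpha subunit Copa rose by 0.59 ± 0.15, from 51 and 52 counts in input to 227 and 200 in IP, and Copb2 rose by 2.04 ± 0.17. Arcn1 counted 14648 and 14368 in input and 4325 and 4078 in IP.

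Hsp70 co-chaperones beside St13 gave 13 higher, 2 lower and 1 not called, with a median of 1.26, and St13 was at -3.93. Bag3, a co-chaperone of selective autophagy, rose by 2.35 ± 0.09 and Stip1, which links Hsp70 and Hsp90, by 1.61 ± 0.12. The 7 ER J proteins tested beside Dnajb14 (at -3.56) had a median of 0.70, with 5 higher and none lower. Beside Unc13d (at -3.50), the priming factor Unc13a rose by 1.23 ± 0.26. Its list of 4 tested genes held 3 called higher and 1 called lower. The lower one, Stxbp2, was at -2.54 ± 0.1, with 157 CPM in input and 50.6 CPM in IP. Of Elongator, the complex that modifies the wobble base of tRNAs, Elp2 rose by 2.05 ± 0.28, Elp3 by 2.28 ± 0.45 and Elp5 by 0.29 ± 0.12, with Elp6 at -8.64. Btbd7 stood at -3.33 and the 5 other BTB-domain genes at a median of 0.80, with 4 higher. Only 1 relative of Nlrc3 was tested: Naip2 was lower, at -2.36 ± 0.07. The acyl-CoA-binding domain genes, a list without a member, had 1 higher and 4 lower and a median of -0.78, which was 0.11 by library totals.

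**Figure D3:**
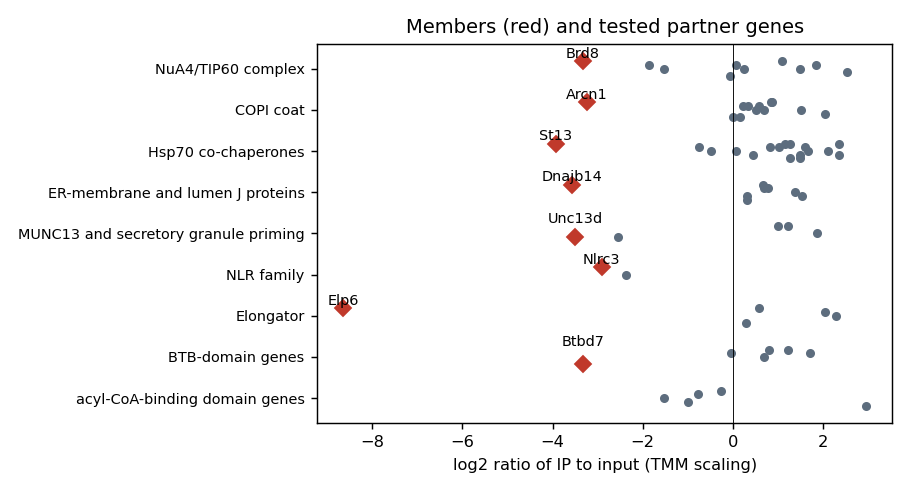
Each point is a gene of a listed complex or family, placed by its log2 ratio of IP to input with TMM scaling, with members as named red diamonds and the other tested genes in grey. The members stand at -2.91 or below, and most of the other genes stand above 0.

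Markers of other cells moved with the fraction too. Of 14 sensory neuron markers, 11 were higher in IP and 2 lower, with a median of 1.05, and their sum rose from 3471 and 3466 CPM in the input pools to 12423 and 12917 CPM in the IP pools. Of 10 Schwann cell markers 9 were lower and none higher, with a median of -3.56, and their sum was 513 and 530.2 CPM in input and 348 and 329 CPM in IP. Of 7 fibroblast markers 5 were lower, of 7 macrophage markers 5 were lower and 1 higher, and of 8 satellite glia markers 4 were lower and 2 higher. The 4 tested erythroid markers, all hemoglobin genes, were lower, with sums of 1704 and 1681 CPM in input and 3.14 and 4.18 CPM in IP. By library totals the calls for sensory neurons were 12 higher and 2 lower, for Schwann cells 1 and 8, for fibroblasts 2 and 4, for macrophages 3 and 2 and for satellite glia 4 and 4. Those of macrophages thus turned with the scaling, and Lyz2, lower at -0.34 with TMM, had 37.4 CPM in input and 54.9 CPM in IP. Their part in the members' values was not tested. None of the listed markers is a member. The choice would have set aside the hemoglobin and collagen genes, Kcnj10, Apoe and Fabp7 by symbol, whatever their values. All of these were under 700 CPM in input, with Hbb-bs highest at 629 CPM.

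Overlaps with other genes were counted in gene models of another build (GRCm38.p6), used for neighbours only. Of 100 members matched, 49 (49.0%) overlapped any gene and 16 (16.0%) a gene in the table. These shares were 37.9% and 13.7% for the other abundant gene IDs and 47.7% and 17.7% for all. The 18 overlapping genes that were not members had a median of 4.0 CPM in input, and no 2 members overlapped each other. Of the 8 that were tested, 4 were higher in IP, among them Ahsa2, and 4 lower, among them the Schwann cell gene Prx. The most counts were those of Gm15950, which overlaps Mpv17l, with 671 CPM in input and 109 CPM in IP (-3.53). Gm40155, which overlaps Dnajb14, had 204 and 73.3 CPM (-2.37). Tox4, which overlaps Mettl3, had 13.6 and 52.1 CPM (1.04).

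The levels of the members in input hardly differed between the treatments. With e5'UTR against without it, in input, the median log2 difference of the 151 was 0.01, with quartiles at -0.01 and 0.03. None was higher and 3 were lower by edgeR's adjusted p, against a background of 0.186% lower and 0.0124% higher among 8085 tested genes. A further 6 had an unadjusted p under 0.05 by edgeR, which made 9 of 151 members, against 394 of 8085 tested genes. The 134 other abundant gene IDs held 1 lower.

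The 3 that fell were also the 3 with the lowest IP levels, which was noticed after their values were seen. Lrrc17, a secreted leucine-rich repeat protein, had 4963, 4892 and 5110 counts in input shGpr151 and 3540, 3696 and 3844 in input with e5'UTR, and 0 in all 6 IP columns. The input pools did not overlap, and the difference was -0.43 ± 0.03 (SE, adjusted p = 4.2e-10 by edgeR). Against a floor of 3 counts per IP pool, its IP level was at least 6999-fold lower than input after shGpr151 and at least 5736-fold lower with e5'UTR. Elp6 had 1988, 1957 and 2043 counts against 1607, 1644 and 1618 in input, and 6 to 17 counts in the IP columns. Its input difference was -0.29 ± 0.03 (adjusted p = 9.4e-06 by edgeR). Akap5, an anchoring protein for protein kinase A, had 2627, 2666 and 2573 counts against 2114, 1762 and 1882, and 18 and 6 counts in the IP pools. Its difference was -0.44 ± 0.05 (adjusted p = 1e-05 by edgeR). By DESeq2 its adjusted p was 1.0 with a log2 difference of -0.45, and its input columns with e5'UTR differed from each other beyond counting error (chi-square adjusted p = 2.2e-05).

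Another low-IP gene, Gm12354, had 1428, 1297 and 1382 counts in input shGpr151 and 1136, 1046 and 911 with e5'UTR, which did not overlap, but its difference of -0.40 ± 0.12 did not pass (adjusted p = 0.37 by edgeR). Without the first column of IP with e5'UTR, whose spread enters the same model, the adjusted p was 0.016. Bc1, a neuronal noncoding RNA left out by its symbol, had 12763 counts in input shGpr151 and 10236 with e5'UTR, a difference of -0.31 (adjusted p = 1.2e-08 by edgeR). Bc1 was chosen for mention after its values were seen. Of the 19 set aside by symbol, 3 were lower in input, Bc1 among them. Timm22, with a ratio of 0.0372, was at -0.18 (adjusted p = 0.01 by edgeR). The third, mt-Rnr2, with a ratio of 0.0676, was at -0.09 (adjusted p = 0.024 by edgeR). Other genes with low IP to input ratios did not pass. Among them, ENSMUSG00000119584, a member with a ratio of 0.0583, was at -0.03. The mitochondrial genes mt-Nd2 and mt-Nd4, set aside by symbol with ratios of 0.0488 and 0.0512, were at -0.02 and 0.10.

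In IP the members moved together. With e5'UTR, 129 of 151 were lower (85.4%), 3 were higher and 19 were not called, against a background of 6.25% lower (505 of 8085) and 4.69% higher by edgeR's adjusted p. The members' median log2 difference was -0.31, with quartiles at -0.37 and -0.24, while the median of all tested genes was 0.00. They made up 25.5% of all genes called lower. Of the 134 other abundant gene IDs, 71 were higher and 14 lower, with a median of 0.09, and of the 19 set aside by symbol 14 were lower, with a median of -0.31. The calls of higher genes rest on the scaling: over all genes 379 became 184 with DESeq2's size factors, 99 with DESeq2 and 93 to 109 without any 1 of the 6 IP columns. Of the 134, those settings called 33 higher and 30 lower, 32 and 26, and 21 to 25 and 29 to 34. The members lower in IP stayed within 127 to 141 over all settings. The choice rested on means over both treatments, so it did not use this contrast.

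Brd8 differed by -0.34 ± 0.02 (adjusted p = 1.5e-10 by edgeR), a ratio of CPM of 0.781 (95% exact interval 0.755 to 0.808). Unc13d differed by -0.34, Zfp410 by -0.37, Eapp by -0.39, Nlrc3 by -0.30, Ccdc62 by -0.25 and Sap18 by -0.18. Ttf1 had 1743, 1855 and 1863 counts in IP shGpr151 against 1464, 1504 and 1414 with e5'UTR, which did not overlap and gave -0.43 ± 0.03. Nanog differed by -0.38 ± 0.03, with 1622 to 1720 against 1359 to 1458 counts. By role, 18 of 19 chromatin, transcription and RNA genes were lower, as were all 14 traffic and cytoskeleton genes, all 7 chaperone, ubiquitin and SUMO genes, all 4 olfactory receptors and all 3 long noncoding RNAs. Of the 5 immune genes 3 were lower, and Samhd1 and Slfn5 did not pass, at -0.20 and -0.26. The differences of those called lower ran from -0.54 for ENSMUSG00000133375 to -0.13 for ENSMUSG00000119584. Among named genes, Gfod2 stood at -0.51 and Ube2d3, a ubiquitin-conjugating enzyme, at -0.14 ± 0.04 (adjusted p = 0.019 by edgeR).

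The 3 that rose in IP with e5'UTR were genes of iron storage and stress defence. Fth1, the heavy chain of ferritin, had 1391, 1317 and 1281 counts in IP shGpr151 against 1596, 1722 and 1635 with e5'UTR, a difference of 0.20 ± 0.03 (adjusted p = 0.00015 by edgeR) and a CPM ratio of 1.13. Cryab, a small heat shock protein, had 746, 711 and 747 against 1069, 1062 and 1017, a difference of 0.40 ± 0.04 (adjusted p = 1.6e-08). Prdx1, a peroxiredoxin, had 675, 607 and 648 against 1064, 1051 and 1002, a difference of 0.57 ± 0.04 (adjusted p = 1.5e-10). In input the 3 differed by 0.00, -0.01 and -0.02. Among other members of that role, the glutathione transferase Gstt2 was lower, at -0.29 ± 0.05, and Tpt1 did not pass, at 0.07. The call of Fth1 ended when column 2 or 3 of IP shGpr151, or column 2 or 3 of IP with e5'UTR, was left out, with adjusted p-values up to 0.23.

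Cryab and Prdx1 had the highest IP to input ratios of all 151. Beside the lower members in IP with e5'UTR, the summed markers of other cells were measured in the same IP pools, without and with e5'UTR. Fibroblast markers were at 416 and 550.4 CPM, with 2 of 7 higher. Schwann cell markers were at 348 and 329 CPM and erythroid markers at 3.14 and 4.18 CPM. Sensory neuron markers were at 12423 and 12917 CPM, with 2 of 14 higher, Stmn2 and Uchl1, and a median log2 difference of -0.03. Satellite glia markers were at 488 and 464 CPM, with Fabp7 higher (0.55) and Apoe lower (-0.32), and macrophage markers at 97.5 and 106 CPM.

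**Figure D4:**
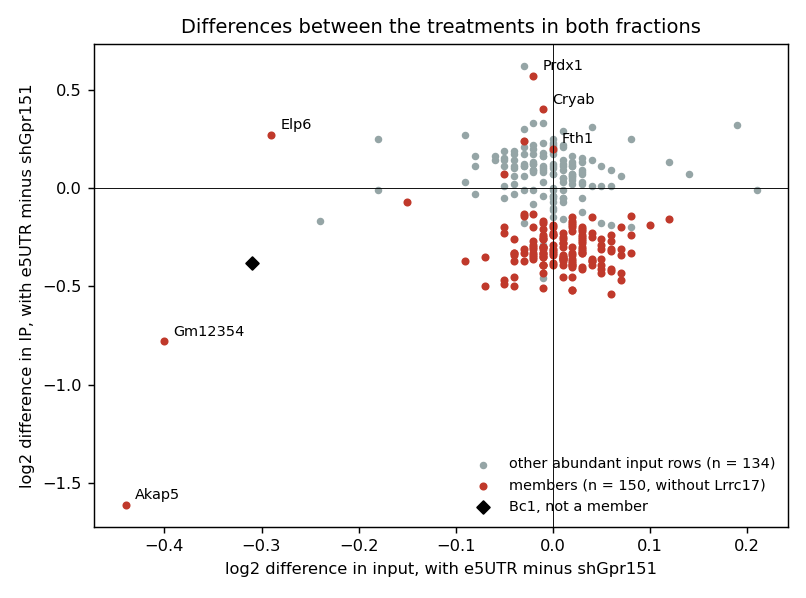
The log2 difference with e5'UTR minus shGpr151 in IP (vertical) is plotted against that in input (horizontal), for 150 members in red, the 134 other abundant gene IDs in grey and Bc1 in black. Members lie near 0 in input with a median of -0.31 in IP, whereas Fth1, Cryab and Prdx1 lie above 0 in IP, and Akap5, Elp6 and Gm12354 lie to the left.

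The difference between fractions in the treatment effect, the interaction term of the same model, was lower for 115 members (76.2%) and higher for 3, against a background of 3.54% lower and 1.57% higher by edgeR's adjusted p. The 127 genes called higher became 56 with DESeq2's size factors, 42 with DESeq2 and 36 to 109 when single columns were left out, with the fewest without an IP column. The members' median was -0.32, and they were 40.2% of all 286 genes called lower. Brd8 stood at -0.33 ± 0.03 and Prdx1 at 0.59 ± 0.05. Because the input hardly differed, the IP and interaction values were close. For Fth1, at 0.19, the adjusted p was 0.0048, but 0.11 with DESeq2's size factors in edgeR, 0.073 with DESeq2, and 0.056 to 0.43 when any of the 6 IP columns was left out.

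Within a pool, the 3 columns divided the members' counts somewhat less evenly than counting alone gives, though few members were called. A chi-square test over columns, on genes with at least 30 counts in the pool, called 0, 2, 3 and 2 members after adjustment in input shGpr151, input with e5'UTR, IP shGpr151 and IP with e5'UTR. The backgrounds were 0.903%, 1.0%, 0.781% and 0.862%. At an unadjusted p under 0.05, 13.2%, 13.2%, 15.4% and 9.4% of the members differed, against backgrounds of 7.72%, 7.66%, 7.29% and 7.24%. Gm12354 was called in 3 pools, with 92, 129 and 212 counts in IP shGpr151 against 177, 46 and 50 with e5'UTR, so that its IP columns overlapped between treatments. Akap5 was called in input with e5'UTR, Slfn5 in IP shGpr151 with 280, 189 and 298 counts, Tpt1 in IP shGpr151 with 278, 213 and 191, and ENSMUSG00000120142 in IP with e5'UTR with 396, 303 and 412.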

How the data were processed

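Total RNA (input) and anti-HA pull-down RNA (IP) of DRG material were measured in 4 groups of 3 columns. The authors deposited estimated counts for each gene as whole numbers. Tools named in the submitters' processing notes are minimap2 and Salmon, with the builds GRCm39 and mm39 and no roles. Per the labels' protocols, libraries came from a nanopore cDNA-PCR barcoding kit. Filters, annotation release and the handling of reads that match several genes could not be found in these sources, and they could change every member's level.

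From the table of 14675 gene IDs and 12 columns, CPM was computed by column total. The counts were tested as deposited with edgeR 4.0.16 in R 4.3.3 (quasi-likelihood test, TMM factors 0.725 to 1.38, 4 group means, filterByExpr with minimum count 10 and minimum total 15, 8085 genes, Benjamini-Hochberg adjusted p under 0.05). The procedure was tested on simulated data with independent columns and larger changes than most members showed between treatments. That test does not check calls of the members' size or differences between single pools. Pooled levels have exact Poisson 95% intervals. Where a pool has 0 counts, the floor of 3 counts is 1.02 CPM in input and 0.724 and 0.659 CPM in the IP pools. Symbols were found for 13191 IDs (89.9%). Alternatives were DESeq2 1.42.0, its size factors, library totals, no filter, 4 pools as samples, a replicate block and each column left out. Scaling by totals without the members was added after seeing the data.

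The members and the lists were chosen with earlier results of these data known. Named members are the 12 highest in input, the 6 lowest and 6 highest ratios, those next to a threshold and those called in a comparison of treatments. Others shown with a role were chosen after their values were seen. From each list at most 4 other genes are named by size of the ratio, and some were chosen after their values were seen. Some genes that fall under these rules are not reported here.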

Additional observations from a re-analysis of the deposited data

Results flagged for a closer look

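The treatment difference was not the same in IP and input for 115 members with a lower and 3 with a higher value of the interaction term (edgeR's adjusted p under 0.05). Among the most abundant members it was -0.32 for Unc13d, -0.33 for Brd8, -0.24 for Ccdc62, -0.39 for Zfp410, -0.31 for Nlrc3, -0.40 for Eapp and -0.20 for Sap18. It was 0.19 for Fth1, 0.41 for Cryab and 0.59 for Prdx1. All compare pools of reads, with 1 pool per group.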

How the results depend on the processing

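The counts of members lower with e5'UTR stayed within 127 to 141 in IP and 111 to 135 for the interaction over all settings, and 2 to 4 in input, the 2 with DESeq2. Leaving out single columns gave a median of the members in IP of -0.41 to -0.32, against -0.39 with DESeq2's size factors and -0.38 with DESeq2. Genes of the whole table called higher in IP numbered 379, but 184 with DESeq2's size factors, 99 with DESeq2 and 93 to 384 without single columns, with the 6 IP columns giving the low values. For the interaction they numbered 127, but 56, 42 and, by totals without the members, 76, and 36 to 109 without single columns. In input 1 was higher, but 0 with DESeq2, 2 without the filter and 0 to 3 without single columns, and 15 were lower, but 9 to 17 without single columns, the 9 without the first column of input shGpr151. IP against input called 3069 lower and 3125 higher, but 1984 and 5205 by library totals. The members' median of -3.17 was -2.28 by library totals, -2.79 by totals without the members, -3.07 with DESeq2's size factors, -2.97 with DESeq2 and without the filter, -3.21 with 4 pools, and -3.18 to -3.09 without single columns. Genes of the complexes called lower numbered 5 by library totals and 6 by totals without the members. The choice gave 261 genes at 350 CPM, 85 at 1400 CPM and 68 at a ratio of 0.2. The causes were not tested. The replicate numbers did not pair the columns (correlations of -0.271 to 0.297 for the same number), and with the replicate block 3, 127, 117 and 151 members were lower in input, IP, the interaction and IP against input. Depth limits Lrrc17, Akap5 and Elp6 in IP.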
